A study of Mus musculus with 6 samples.

Results

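Immediate early genes are transcribed within minutes of a stimulus without the need for new protein, and their short-lived mRNAs report recent signaling in a tissue. Several of them encode subunits of AP-1, a dimer of basic leucine zipper (bZIP) proteins in which a Jun protein pairs with another Jun, a Fos or an Atf protein and binds DNA to drive genes of matrix turnover, growth and inflammation. Here 10 genes were followed as a list of gene symbols in the deposited table of 23107 genes. Fos, Fosb, Fosl1 and Fosl2 encode the Fos family and Jun, Junb and Jund the Jun family. Egr1 encodes a zinc finger factor, Atf3 a stress-induced bZIP protein, and Ier2 a small nuclear protein induced with the others. All 10 genes were found in the table. They were listed by symbol, with no threshold on a measured value. The RNA came from aortic valves of outbred mice aged 4 months, with 3 control and 3 mutant libraries. Mutants carried caAcvr1, a transgene for an always-active form of the BMP receptor Acvr1 that Cre switches on, together with Nfatc1Cre, a knock-in that places Cre in the Nfatc1 locus and recombines in the endocardium, in mesenchyme derived from it, in valve interstitial cells and at the leaflet-wall junction. The labels call the controls wild type, while the study's methods allow control mice with either transgene alone or with neither, and do not say how many mice went into a library.

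The control libraries held 46180667 to 55728852 fragments and the mutant libraries 32218345 to 53129462. Marker genes of valve interstitial cells (11 of 11) and endothelium (9 of 9) were tested and present in the tissue, together with cardiac muscle markers, whose summed level ran from 12653 to 41855 CPM over the 6 libraries. CPM is a count scaled to a common library total after TMM normalization, which corrects for library size and composition. In such mixed tissue, fewer cells of a type and less RNA per cell cannot be told apart. The study's general statement on statistics calls the samples of its assays independent, but neither it nor the labels say that these libraries came from separate animals, so p-values measure the spread between these libraries, which may be technical.

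The promoters of 4 of the genes are shown because Fos, Jun and Junb varied together from library to library, as described further on, while Fosl2 of the same families did not. This choice was made from the values, and the part of the promoters in this variation was not tested. The RefSeq windows of build GRCm38.p6 hold 250 bases before and 50 bases from the transcription start, read 5′ to 3′ along the gene. They lie at chr12:85473640-85473939 on the plus strand (Fos), chr4:95052173-95052472 on the minus strand (Jun), chr8:84978699-84978998 on the minus strand (Junb) and chr5:32136222-32136521 on the plus strand (Fosl2). Capitals mark matches on either strand to TGACG (the core of the cAMP response element), TGACATCA (the AP-1 and Atf site of the Jun promoter), TATAAA (the TATA box), CCAAT (the motif of the factor NF-Y) and GGGCGG (the GC box).
Fos: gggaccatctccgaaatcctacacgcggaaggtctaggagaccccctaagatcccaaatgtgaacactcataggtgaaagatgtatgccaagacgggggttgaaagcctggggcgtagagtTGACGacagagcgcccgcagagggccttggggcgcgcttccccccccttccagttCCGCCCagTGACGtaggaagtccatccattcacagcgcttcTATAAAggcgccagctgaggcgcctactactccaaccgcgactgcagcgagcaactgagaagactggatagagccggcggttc
Jun: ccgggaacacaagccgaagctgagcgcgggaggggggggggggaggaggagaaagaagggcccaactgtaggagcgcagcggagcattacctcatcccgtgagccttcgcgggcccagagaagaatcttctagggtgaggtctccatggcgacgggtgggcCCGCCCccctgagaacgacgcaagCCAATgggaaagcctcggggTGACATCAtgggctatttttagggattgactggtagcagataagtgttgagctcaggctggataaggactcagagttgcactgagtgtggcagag
Junb: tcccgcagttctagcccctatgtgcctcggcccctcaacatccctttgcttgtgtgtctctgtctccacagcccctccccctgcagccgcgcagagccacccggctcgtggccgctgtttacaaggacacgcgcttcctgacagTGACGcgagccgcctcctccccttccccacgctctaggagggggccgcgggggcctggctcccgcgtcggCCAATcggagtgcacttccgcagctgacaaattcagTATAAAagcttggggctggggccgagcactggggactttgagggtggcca
Fosl2: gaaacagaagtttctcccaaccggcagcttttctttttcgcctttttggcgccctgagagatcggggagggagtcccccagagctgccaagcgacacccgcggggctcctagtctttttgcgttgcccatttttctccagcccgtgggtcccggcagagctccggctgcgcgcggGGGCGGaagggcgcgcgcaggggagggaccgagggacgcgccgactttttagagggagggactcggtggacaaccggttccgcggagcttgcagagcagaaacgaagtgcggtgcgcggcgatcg

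Windows were given for 7 of the 10 genes, with none for Fosl1, Egr1 and Ier2. They follow the RefSeq start, which can differ from the gene limits given here. The Jund window ends upstream of the annotated Jund gene and held 0 of the motifs searched. The starts of Fosb, Fosl2 and Atf3 lie inside their genes. The start of Junb lies upstream of its gene, and its TATAAA begins at that start itself, not before it. TGACG was found in 4 of the 7 (Fos, Fosb, Junb and Atf3), against 20.8% of all 32851 promoter windows. In Fos it starts 129 and 66 bases before the transcription start, and the second copy is followed by a TATAAA 33 bases before the start. TGACATCA was found in 1 of the 7, 45 bases before the start of Jun, and in 3.62% of all windows. The consensus AP-1 site TGANTCA and the CArG box, the motif bound by serum response factor, were found in 0 of the 7 windows, and in 7.81% and 1.63% of all windows. GGGCGG was found in 5 of the 7 (35.7% of all windows), CCAAT in 3 (37.4%) and TATAAA in 2 (13.6%). A copy of GGGCGG can overlap the next, as in Fosb and Atf3. These matches describe letters in the windows only. Bases more than 250 before the start were not searched, so a CArG box or another motif further upstream would be missed. TGACG was found in Fosb and Atf3, outside the genes that varied together, and not in Jun, which was among them.

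Per length of exon, Jund was the most abundant of the 10 mRNAs in the aortic valve and Fosl1 the least. The mean level was 380 CPM per kb of exon for Jund, with a range of 355 to 401 over the 6 libraries. It was followed by Ier2 (111), Jun (103) and Junb (76.2), then by Fos (42.0), Egr1 (35.8), Atf3 (11.7), Fosl2 (3.92), Fosb (0.328) and Fosl1 (0.0513), all as mean CPM per kb. The range of Jund did not overlap that of Ier2, and neither did the ranges of Egr1 and Atf3, of Atf3 and Fosl2, of Fosl2 and Fosb, or of Fosb and Fosl1. Neighbors between Ier2 and Egr1 had overlapping ranges, although within a library Jun exceeded Junb, and Junb exceeded Fos, in 6 of 6. Ier2 exceeded Jun, and Fos exceeded Egr1, in 5 of 6. With the length of the longest GENCODE transcript linked to a RefSeq mRNA in place of all exons, an alternative chosen after seeing the data, Egr1 (52.8 CPM per kb) came before Fos (46.8) and the other ranks were kept. Among 13851 tested genes with a length, Jund stood at the 99.3rd percentile of level per kb, Jun at the 96.6th, Fos at the 91.2nd and Fosl2 at the 45.9th.

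**Figure D1:**
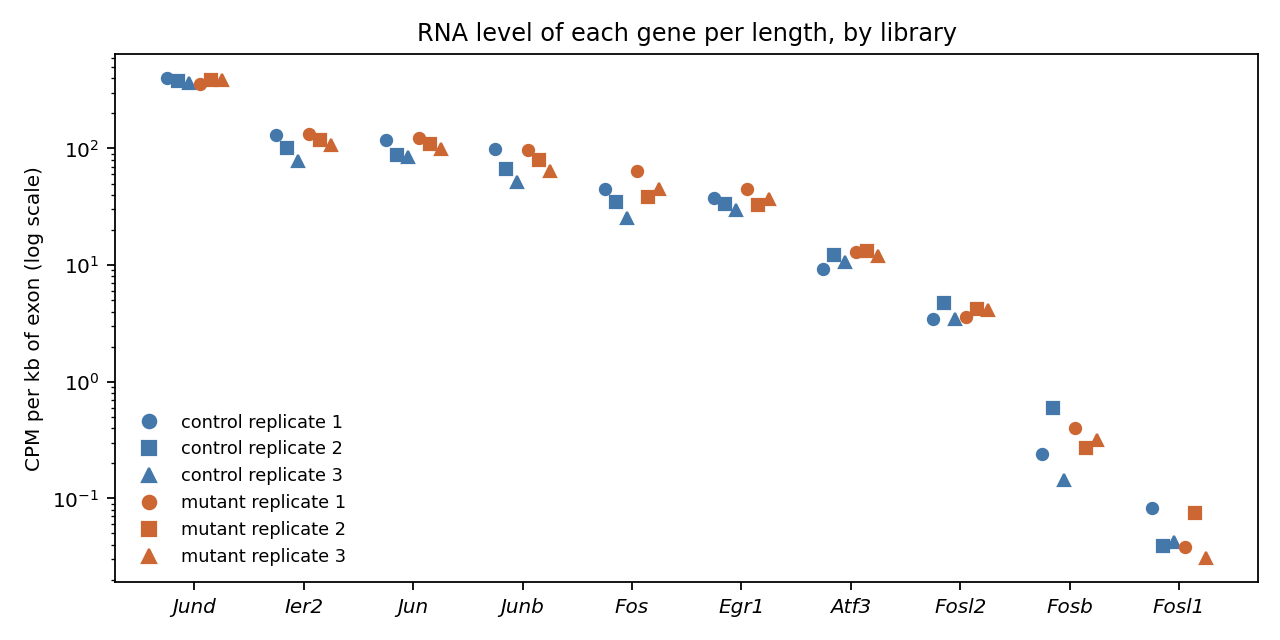
Level of the 10 genes in each library, as CPM per kb of exon on a log scale. Blue symbols are the 3 control libraries and orange symbols the 3 mutant libraries, with the symbol shape giving the replicate. Jund lies between 355 and 401 CPM per kb in all 6 libraries, and Fosl1 lies under 0.1 in all of them.

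In the pooled mRNA of the Fos and Jun families, counted per length, the Jun family made up 92.4% and the Fos family 7.64%. The share of Jund alone was 60.3%, 66.3% and 69.1% for controls 1, 2 and 3, against 55.3%, 62.5% and 64.6% for mutants 1, 2 and 3. Fos itself held 6.71%, 6.05% and 4.72% of the pool in the controls and 9.92%, 6.23% and 7.50% in the mutants. The groups overlapped for each of the 7 shares. These are shares of RNA, and the proteins were not measured here.

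The valves of caAcvr1:Nfatc1Cre mice and of controls were then compared gene by gene. Of the 10 genes, 9 passed the minimum of 10 counts in 3 libraries, Fosl1 being the exception. By the quasi-likelihood test of edgeR, 0 of these 9 reached an adjusted p under 0.05, as did 0% of the 15354 genes tested, and 0 had an unadjusted p under 0.05, against 3.45% of all genes. That count of 0 changed under some alternatives: Fos, Atf3 or Ier2 passed an unadjusted 0.05 in 4 of them, none of which gave any of the 9 an adjusted p under 0.05. In 0 of the 9 did the groups separate completely, against 8.88% of all genes (4.06% with mutants higher and 4.82% with mutants lower). The fitted log2 fold change was above 0 in 8 of the 9, where 52.2% of all genes were above 0. Leaving out 1 library at a time gave 5 of 9 without control replicate 3 and 7 or 8 of 9 without any other library. The median log2 fold change of the 9 genes was 0.18, beside 0.01 over all genes tested. This median depended on single libraries, as it was 0.049 without control replicate 3, 0.092 without mutant replicate 1 and 0.28 without control replicate 1.

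Fos encodes c-Fos, the founding Fos protein, and lies on chromosome 12 of GRCm38 (also called mm10) from 85473890 to 85477273. Controls 1, 2 and 3 gave 105, 81.7 and 59.1 CPM of Fos, and mutants 1, 2 and 3 gave 150.0, 90.7 and 106 CPM. Mutant replicate 1 was the highest library and control replicate 3 the lowest, and the groups overlapped because control replicate 1 lay above mutant replicate 2 and just under mutant replicate 3. Control libraries averaged 81.9 ± 22.9 CPM and mutant libraries 116 ± 30.8 CPM (SD, n = 3 each). The fold change was 1.41, with a 95% interval of 0.928 to 2.15 (log2 fold change 0.50, standard error (SE) 0.26, adjusted p = 0.999 in edgeR). An exact permutation test over the 6 libraries gave a two-sided p of 0.2, where 3 against 3 cannot give less than 0.1. The log2 fold change of Fos stayed above 0 when any library was left out, with 0.27 when mutant replicate 1 was dropped and 0.72 when control replicate 1 was dropped.

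The other Fos family genes differed less in their means, but for Fosb this depended on the fit. Without control replicate 2 its log2 fold change was 0.79, against 0.50 for Fos. With limma-voom and sample quality weights it was 0.61, against 0.52 for Fos. Fosl2, which encodes Fra-2 (chromosome 5, 32135801 to 32157842), was read at 33.7, 45.6 and 33.7 CPM in the controls and 34.5, 40.6 and 39.6 CPM in the mutants. Control replicate 2 was the highest library, and the mutants lay within the range of the controls. The fold change of Fosl2 was 1.02, with a 95% interval of 0.794 to 1.30. Fosb (chromosome 7, 19302696 to 19310051) was low, with 80, 189 and 41 counts in the controls and 129, 67 and 63 in the mutants, or 0.889 to 3.74 CPM. Its highest and its lowest library were both controls, 4.20-fold apart, and the fold change between groups had a 95% interval of 0.415 to 2.45. Fosl1, which encodes Fra-1 (chromosome 19, 5447547 to 5455946), had 9, 4 and 4 counts in the controls and 4, 6 and 2 in the mutants. At these counts Fosl1 fell under the minimum for testing. Its exons overlap those of Ccdc85b on the other strand, which the library kit does not tell apart.

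Among the Jun family, Jund (chromosome 8, 70698949 to 70700616), which encodes the constitutively expressed JunD, was the steadiest. It was read at 669, 635 and 613 CPM in the controls and 593, 645 and 648 CPM in the mutants. Its highest library exceeded its lowest 1.13-fold, and the fold change between groups was 0.984, with a 95% interval of 0.789 to 1.23. Jun (chromosome 4, 95049034 to 95052222), which encodes c-Jun, was read at 374, 278 and 268 CPM in the controls and 389, 349 and 318 CPM in the mutants. Control replicate 1 lay among the mutants, above mutant replicates 2 and 3, and the other controls lay under all mutants. The fold change of Jun was 1.15, with a 95% interval of 0.872 to 1.52 (adjusted p = 0.999 in edgeR). Its log2 fold change of 0.20 became 0.11 without control replicate 3 and 0.37 without control replicate 1. Junb (chromosome 8, 84974484 to 84978718) was read at 227, 152 and 119 CPM in the controls and 225, 183 and 147 CPM in the mutants. The highest control and the highest mutant were close, the lowest mutant lay above the lowest control, and the groups overlapped. The fold change of Junb was 1.12, with a 95% interval of 0.727 to 1.71. Its log2 fold change turned to -0.035 without control replicate 3 and -0.0071 without mutant replicate 1, and was 0.45 without control replicate 1. In the annotation Jun and Jund overlap antisense transcripts and Junb overlaps Prdx2 on the other strand, so reads of such partners could enter these counts. Exons of Prdx2 overlap those of Junb, and Prdx2 reached 22759 counts in a library, against at most 12144 for Junb. The part of Prdx2 reads in the Junb values was not tested.

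Outside the AP-1 families proper, Egr1 was read at 169.7, 148 and 132 CPM in the controls and 200.3, 147 and 165 CPM in the mutants. Mutant replicate 1 was the highest library, and mutant replicates 2 and 3 lay within the range of the controls. The fold change of Egr1 was 1.14, with a 95% interval of 0.886 to 1.46. Its log2 fold change of 0.18 became 0.054 without mutant replicate 1 and 0.28 without control replicate 1. Ier2 (chromosome 8, 84661331 to 84662852) was read at 198, 152 and 119 CPM in the controls and 201, 181 and 162 CPM in the mutants, so that control replicate 1 lay close to the highest mutant. Its fold change was 1.16, with a 95% interval of 0.843 to 1.59. The log2 fold change of Ier2, 0.21, became 0.049 without control replicate 3 and 0.42 without control replicate 1. Atf3 (chromosome 1, 191170296 to 191218039) was read at 20.0, 26.1 and 22.9 CPM in the controls and 28.0, 28.5 and 25.6 CPM in the mutants. Mutant replicate 3 lay just under control replicate 2, and every other mutant lay above every control. Atf3 averaged 23.0 ± 3.02 CPM in controls and 27.4 ± 1.55 CPM in mutants (SD, n = 3 each). The fold change was 1.19, with a 95% interval of 0.962 to 1.47 (SE 0.13 on the log2 scale, adjusted p = 0.999 in edgeR). The exact permutation test for Atf3 gave a two-sided p of 0.2.

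**Figure D2:**
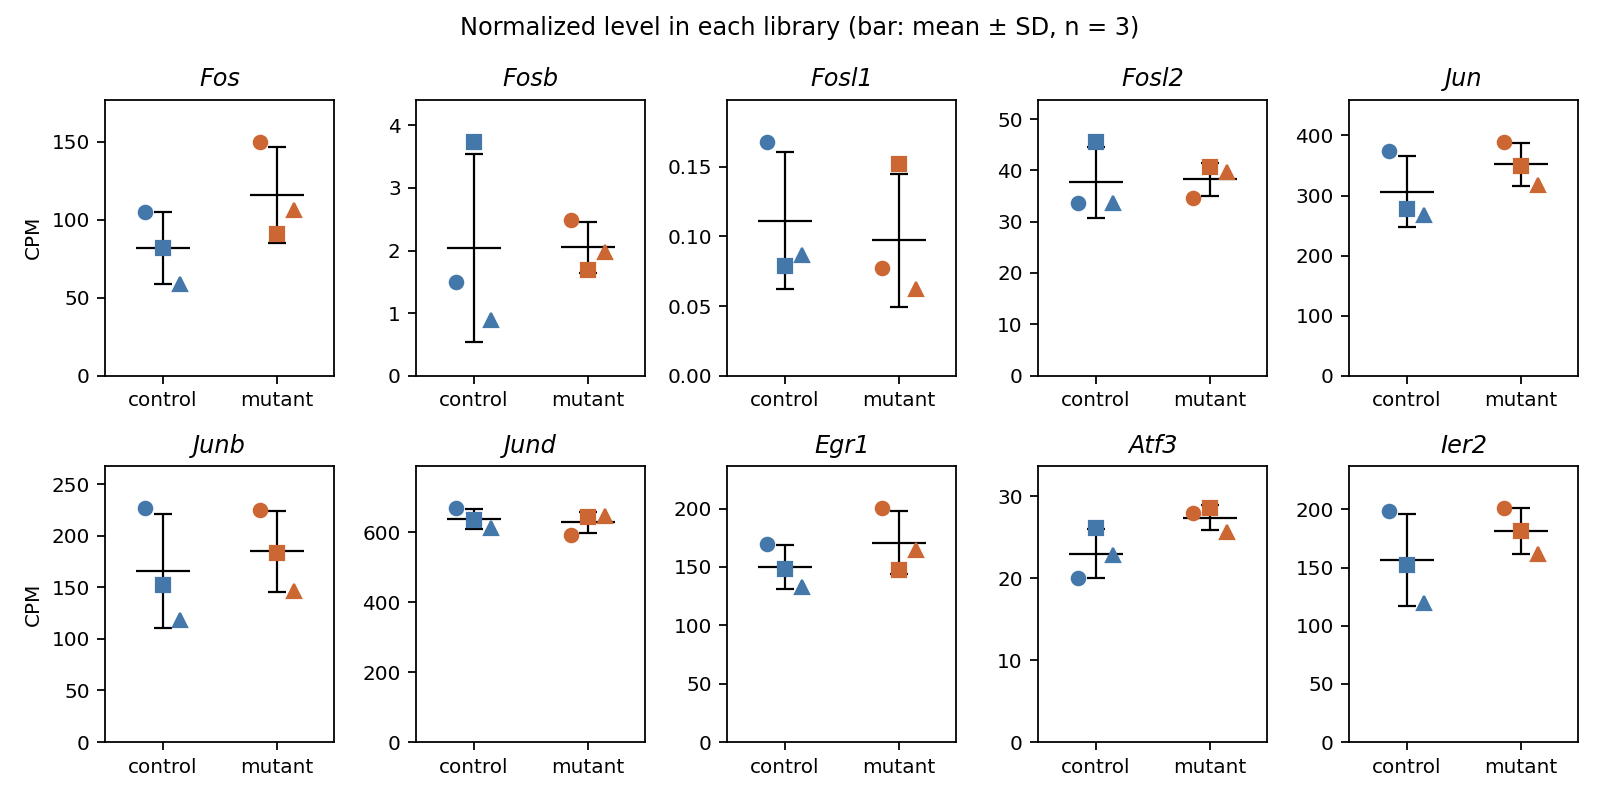
CPM of each of the 10 genes by library, control (blue) and mutant (orange), with symbol shape giving the replicate (circle 1, square 2, triangle 3). Black bars are the mean ± SD of 3 libraries, and each panel has its own axis from 0. In every panel the mutant and control libraries overlap.

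**Figure D3:**
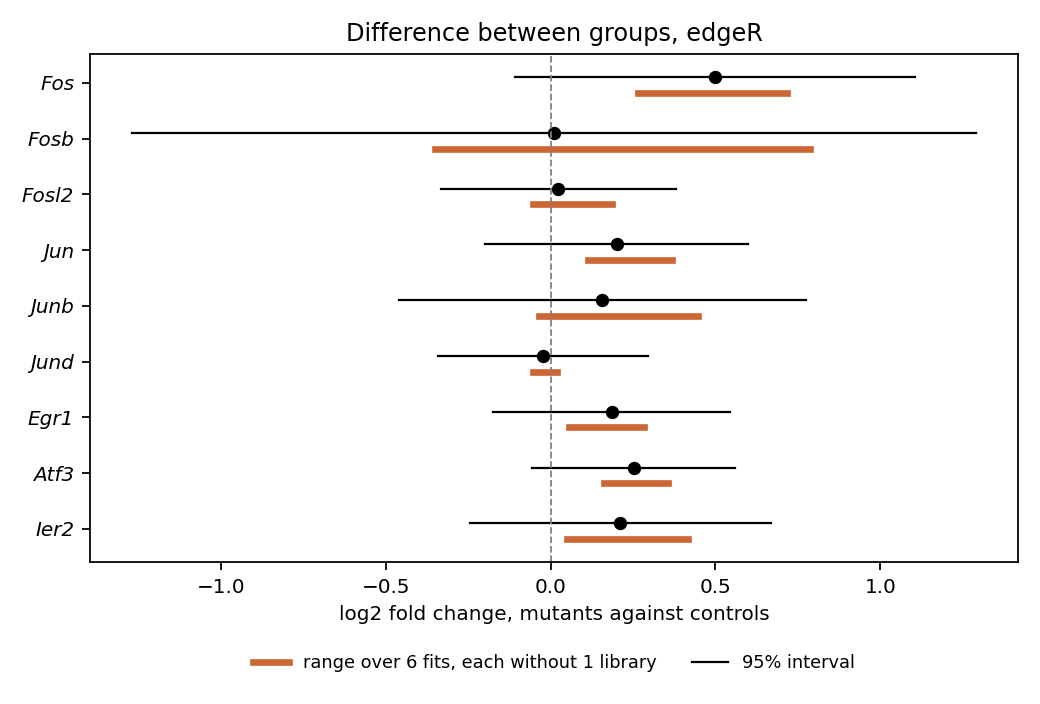
Log2 fold change, mutants against controls, of the 9 genes tested. Black points and lines give the edgeR estimate and its 95% interval, and orange bars the range over 6 fits that each left out 1 library. Every interval includes 0, and Fos has the highest estimate (0.50).

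The variation between libraries of the same genotype was then compared among the genes. Fos, Egr1, Jun, Junb and Ier2 went up and down together, and were grouped here after their values were seen. Across the 6 libraries the 10 pairs among these 5 genes had Pearson correlations of log2 CPM from 0.79 to 0.97, and the highest was that of Fos with Egr1. After subtracting the mean of each group, the same pairs had correlations from 0.76 to 0.98. In the other 26 pairs among the 9 genes the correlations ran from -0.47 to 0.70 before this subtraction and from -0.51 to 0.70 after it. As the 5 genes were grouped by their values, a gap to the other pairs follows from the grouping. The points share their libraries, depth and composition, so these correlations are descriptions.

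Of the 9 genes tested, 5 were highest in replicate 1 of both the control and the mutant libraries, and these were the same 5 genes. Over all genes tested the share was 17.1%, from which nothing is read here, since the 5 were grouped by their shared pattern. In Junb, control replicate 1 lay 0.50 above the mean of the controls on the log2 scale and mutant replicate 1 lay 0.30 above the mean of the mutants. For Fos the corresponding deviations were 0.40 and 0.41. Replicate 1 was also the most deeply sequenced library of each group. Of the 9 genes, 3 (Jun, Junb and Ier2) ranked the libraries in the order of their total fragments in both groups, which 2.54% of all genes tested did (the reverse order was found in 2.2%), and the part of depth in these levels was not tested. Fosl2 deviated the other way in these libraries, by -0.14 in both, and Jund by 0.07 and -0.08. The within-group SD of log2 CPM was 0.39 for Fos and 0.40 for Junb, at the 80.9th and 81.3rd percentile of the 12641 tested genes with a mean count of at least 100. It was 0.20 for Egr1 and Fosl2, near the median of those genes, and 0.07 for Jund, at the 5.32nd percentile.

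**Figure D4:**
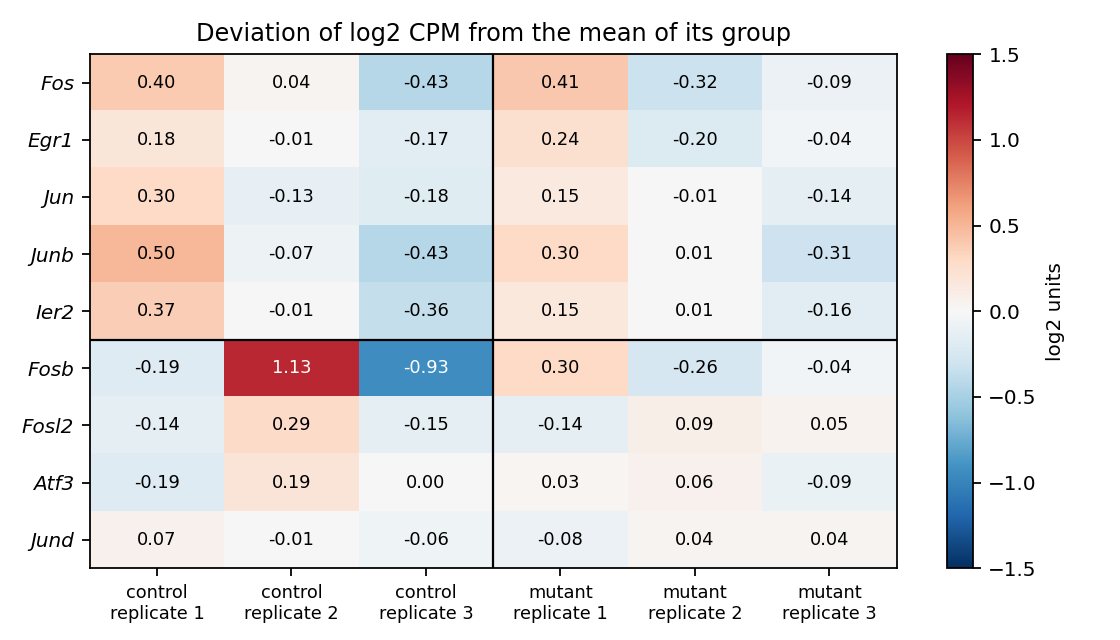
Deviation of log2 CPM from the mean of the same group, for 9 genes (rows) in 6 libraries (columns), with red above and blue below the group mean and the value printed in each cell. The upper 5 rows are above 0 in replicate 1 of both groups. Fosb has the widest deviations, 1.13 and -0.93 in controls, and the widest of Jund is -0.083, in mutant replicate 1.

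The genes most like Fos, Jun and Atf3 over the 6 libraries were picked by Pearson correlation of log2 CPM from 12633 other genes with a mean count of at least 100. For Fos these were Cd99l2, Tpsb2, Mcpt4, S1pr2 and Tnfrsf12a, with correlations of 0.97 each. Tpsb2 and Mcpt4 encode proteases of mast cells. Tpsb2 was read at 30.7, 26.3 and 13.9 CPM in the controls and 51.7, 28.8 and 38.8 CPM in the mutants, and Mcpt4 at 12.3, 9.99 and 4.75 CPM and 21.6, 11.3 and 15.9 CPM. Both were, as Fos, highest in mutant replicate 1 and lowest in control replicate 3. They were picked for their correlation with Fos, so this shared order adds no evidence. No list of mast cell markers was read, and the part of mast cells in the level of Fos was not tested. For Jun the most similar genes were Dusp26, Psmg2, Nqo1, Tmem41a and Zfp566, with correlations from 0.98 to 0.99. Nqo1, a target of the oxidative stress factor Nrf2, was read at 52.2, 28.7 and 29.2 CPM in the controls and 56.7, 43.2 and 35.5 CPM in the mutants. For Atf3 they were Zfp609, Rgl1, Gmfb, D1Ertd622e and Rad21, with correlations from 0.96 to 0.97. With 6 libraries, 12 genes reached a correlation of 0.95 with Fos, 25 with Jun and 6 with Atf3.

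Around the 10 genes, lists of upstream regulators, relatives and targets were read from the same fit. In none of these lists did a gene have an adjusted p under 0.05 in edgeR. Of 12 other bZIP genes that can pair within or near AP-1, 7 had a log2 fold change above 0 and 5 below, with a median of 0.08. This median was 0.018 without mutant replicate 2 and 0.097 without control replicate 3. All mutants lay above all controls in 2 of the 12 (4.06% of all genes) and below in 1 (4.82%), and 1 had an unadjusted p under 0.05 (3.45%). That gene was Maff, which encodes a small Maf protein without a transactivation domain and which was also counted among the early response genes. Maff was read at 28.3, 40.1 and 31.8 CPM in the controls and 18.6, 26.4 and 23.1 CPM in the mutants, all mutants lying under all controls. Its log2 fold change was -0.56 (SE 0.18, unadjusted p = 0.019, adjusted p = 0.999 in edgeR). The next by p, Atf7 and Maf, had log2 fold changes of 0.29 and 0.33. Mafk, which encodes another small Maf protein and was among the most abundant of the list in CPM, had a value of -0.26.

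Of 32 other early response genes 29 were tested, 17 with a log2 fold change above 0 and 12 below, with a median of 0.04 beside 0.01 for all genes. This median turned to -0.053 without mutant replicate 2 and was 0.087 without mutant replicate 3. Nr4a1, an orphan nuclear receptor induced by the same stimuli as Fos, was read at 44.4, 42.6 and 42.3 CPM in the controls and 54.9, 47.5 and 63.6 CPM in the mutants, higher in every mutant than in every control. Its log2 fold change was 0.36 (SE 0.12, unadjusted p = 0.0236, adjusted p = 0.999 in edgeR). Ier5, a relative of Ier2, was also read higher in every mutant, with averages of 68.9 ± 3.86 CPM for controls and 80.2 ± 5.19 CPM for mutants (SD, n = 3 each). Of the most abundant genes of this list, Ctgf, a matricellular target of YAP and serum response factor, was read at 824.5 to 1291 CPM in the controls and 609 to 947 CPM in the mutants. Id3, a target of BMP signaling, differed by a log2 value of 0.01 (SE 0.16). In all, 4 genes of the list had all mutants above all controls and 2 had all mutants below, or 6 of 29 without overlap, beside 8.88% of all genes.

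Upstream of these genes, mitogen-activated protein kinases (MAPK) phosphorylate Jun and the Elk factors that act with serum response factor at the Fos promoter. In this list 17 of 19 genes were read in the table and tested, 8 above 0 and 9 below, with a median log2 fold change of -0.01. This median was -0.037 without mutant replicate 2 and turned to 0.052 without control replicate 2. Srf, which encodes serum response factor, was read at 59.3, 50.8 and 56.8 CPM in the controls and 76.5, 57.2 and 67.2 CPM in the mutants, with overlapping groups and a log2 difference of 0.27 (SE 0.13). Map2k7, which encodes an activator of Jun kinases, averaged 95.3 ± 4.03 CPM in controls and 81.2 ± 7.10 CPM in mutants (SD, n = 3 each), the highest mutant lying under the lowest control, with an unadjusted p of 0.0517 in edgeR. Mapk8, which encodes the Jun kinase JNK1, differed by a log2 value of 0.69 (SE 0.33) from 156 to 288 counts per library. Mapk14, which encodes a p38 kinase and was among the most abundant of the list in CPM, had a log2 fold change of -0.04.

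The 14 phosphatases and feedback inhibitors of MAPK signaling had 6 log2 fold changes above 0 and 8 below, with a median of -0.12. Dusp16, a phosphatase of Jun kinases, averaged 11.5 ± 1.06 CPM in controls and 14.6 ± 1.20 CPM in mutants (SD, n = 3 each), and was higher in every mutant. Dusp4, a phosphatase of several MAPK, lay below every control in every mutant, with averages of 4.09 ± 0.942 CPM for controls and 2.64 ± 0.531 CPM for mutants (SD, n = 3 each), while the groups overlapped for Spry1, a feedback inhibitor. Dusp4 and Spry1 differed by log2 values of -0.63 (SE 0.28) and, respectively, -0.33 (SE 0.15). Dusp1, itself an immediate early gene and the most abundant of the list, was read at 254 to 269 CPM in the controls and 262 to 304 CPM in the mutants. Dusp7 followed with a log2 fold change of 0.09.

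Of 20 known AP-1 target genes 19 were tested, and 16 had a log2 fold change above 0, with a median of 0.17 (0.071 without mutant replicate 2 and 0.29 without mutant replicate 3). Over all genes tested 52.2% were above 0. Of the 19 targets 4 had an unadjusted p under 0.05, where 3.45% of all genes had one, and 0 passed after adjustment in edgeR. Ccl2, which encodes a monocyte chemokine, was read at 9.65, 5.32 and 8.09 CPM in the controls and 24.1, 18.8 and 8.41 CPM in the mutants, so that mutant replicate 3 lay within the controls. Its log2 fold change was 1.16 (SE 0.40). Hmox1, which encodes heme oxygenase, averaged 16.1 ± 3.22 CPM in controls and 22.0 ± 1.39 CPM in mutants (SD, n = 3 each), and was higher in every mutant. Sphk1, which encodes a sphingosine kinase, went the other way, with averages of 9.53 ± 0.818 CPM for controls and 6.98 ± 0.653 CPM for mutants (SD, n = 3 each) and a log2 difference of -0.45 (SE 0.16). The most abundant targets, Vim and Mmp14, had log2 fold changes of 0.01 and 0.06. Beside this list, markers of macrophages, which can express several of its genes, summed to 1451 to 1632 CPM in the controls and 1914 to 2070 CPM in the mutants. All 9 of these markers had a log2 fold change above 0 (52.2% of all genes), and 5 lay higher in every mutant (4.06% of all genes). Markers of smooth muscle summed to 7070 to 14386 CPM in the controls and 3888 to 7199 CPM in the mutants, and 7 of 8 had a log2 fold change below 0. Control replicate 2 held the highest smooth muscle sum, and the median of these markers went from -0.87 to -0.43 without it and to -0.57 without mutant replicate 1. The part of these cells in the values of the target genes, or of the AP-1 and immediate early genes followed here, was not tested.

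Heat shock genes, which respond to stress and to handling of tissue as immediate early genes do, had 10 of 12 log2 fold changes above 0, with a median of 0.14 (0.037 without mutant replicate 1, 0.23 without control replicate 1 and 0.24 without mutant replicate 2), where 52.2% of all genes were above 0. In edgeR 2 of the 12, Hspa1a and Hspa1b, had an unadjusted p under 0.05 (3.45% of all genes), and 0 had an adjusted p under 0.05. Their summed level was 4802, 4784 and 4239 CPM for controls 1, 2 and 3, against 5534, 4251 and 5076 CPM for mutants 1, 2 and 3. The sum was highest in replicate 1 of each group, as Fos and Egr1 were, but control replicates 1 and 2 were nearly equal. Of the 12 genes, 4 were higher in control replicate 1 than in control replicate 2, and 1 ranked the libraries as Fos did in both groups. The shares of all genes with these orders were not computed, so nothing is read from the counts. The part of this sum in the levels of Fos and Egr1 was not tested. Hspa1a and Hspa1b, near-identical copies of the inducible Hsp70 gene whose reads may be split between them, differed by log2 values of 0.83 (SE 0.30) and, respectively, 0.71 (SE 0.27). Hspa1a was read at 27.0, 39.9 and 24.3 CPM in the controls and 51.3, 35.4 and 75.0 CPM in the mutants, highest in mutant replicate 3, which was not the highest library for Fos. Dnajb1, a partner of Hsp70, differed by a log2 value of 0.28 (SE 0.15), and the abundant Hspa8 and Hsp90ab1 had values of 0.12 and 0.07.

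**Figure D5:**
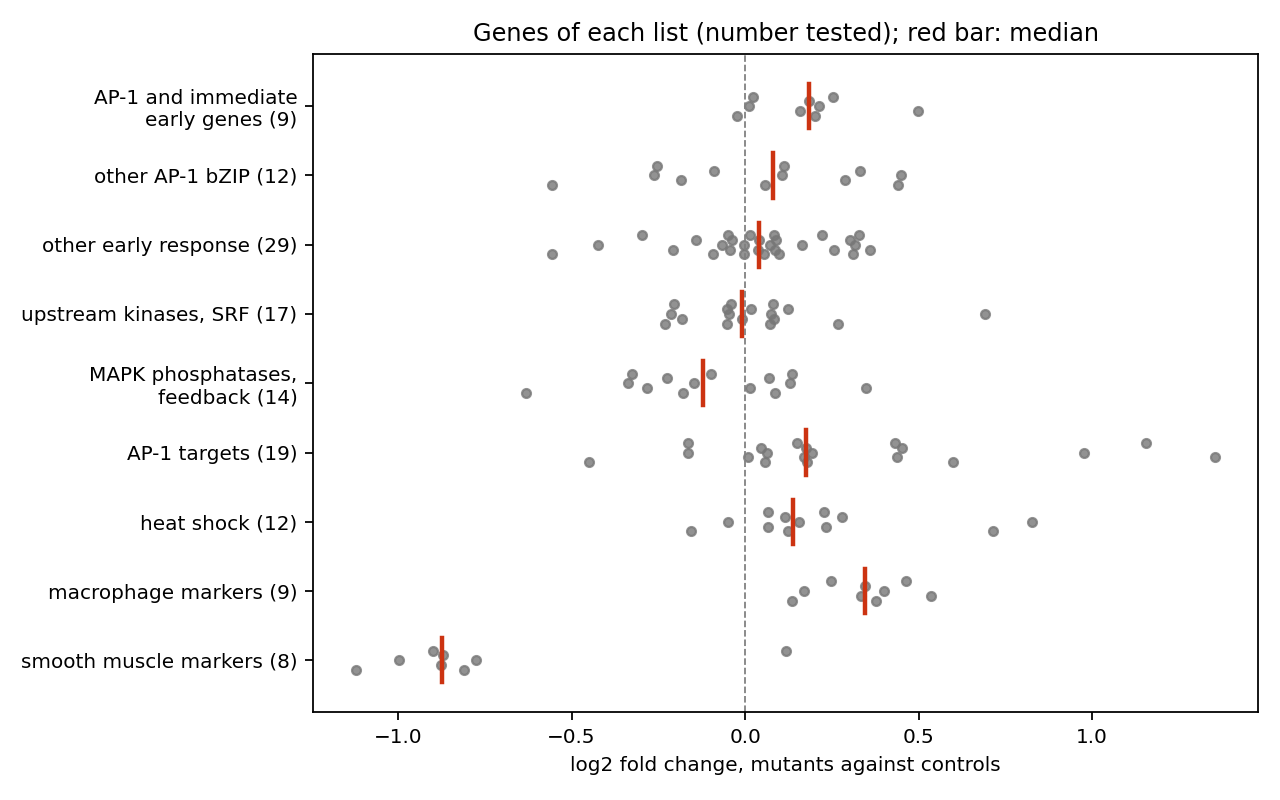
Log2 fold change, mutants against controls, of each gene tested in 9 lists, with the number tested in parentheses and the median of each list as a red bar. The median is 0.18 for the AP-1 and immediate early genes, between -0.12 and 0.17 for the other regulator, target and heat shock lists, 0.34 for macrophage markers and -0.87 for smooth muscle markers. Medians move with single libraries: without control replicate 3 that of the AP-1 and immediate early genes is 0.049, and without control replicate 2 that of the smooth muscle markers is -0.43.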

How the data were processed

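RNA-Seq of 3 control and 3 mutant aortic valve libraries was used. Per the labels and the study's methods, the authors aligned reads to mm10 with TopHat2 2.0.13 and Bowtie2 (version 2.2.1 in the submitters' processing notes), and assigned fragments to genes with Cuffdiff 2.1.1. The values as deposited are estimated counts per gene, not scaled for library size, and 1.66% to 1.87% per library were not whole (any decimal part, with no tolerance) and were rounded. The kit named in the labels does not mark strand. A gene was tested if 3 or more libraries held 10 or more counts (15354 genes), with edgeR 4.0.16 in R 4.3.3 (TMM, quasi-likelihood F test, two-sided, no covariates), with Benjamini-Hochberg adjustment over all genes. Standard errors were derived from each log2 fold change with its F value, and 95% intervals from these and the fitted degrees of freedom. The pipeline was tested on simulated data. CPM values are per library total times the TMM factor, and 0.01 CPM was added before logarithms. Lengths and positions are from GENCODE vM21 (GRCm38), promoters from RefSeq.

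The 10 genes and the other lists, written from general knowledge, were chosen with earlier results of these data known. The text names all 10 genes, in each regulator, target or heat shock list the 3 with the smallest p and the 2 with the highest mean CPM, and for Fos, Jun and Atf3 the 5 most correlated genes. Some genes that this rule selects are not reported here. As alternatives, the table was fitted with DESeq2 1.42.0, with limma-voom (limma 3.58.1; plain or weighted by library quality), after upper-quartile scaling, unfiltered, at a mean count of 100 or more, with a block for replicate number, and with each library left out. Medians of lists without each library were added after seeing the data. Cuffdiff needs aligned reads and was not run. Groups of 3 were too small to screen for outlying libraries. Lists of cardiac muscle, erythroid, adipocyte and neutrophil markers had 9 of 12, 3 of 4, 0 of 6 and 5 of 7 tested genes above 0 in the mutants, with 0 adjusted p-values under 0.05 in edgeR; interstitial and endothelial markers had 7 of 11 and 5 of 9.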

Additional observations from a re-analysis of the deposited data

How the results depend on the processing

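The count of genes with an adjusted p under 0.05 was 0 in edgeR and in every alternative but DESeq2, which called 26 (21 higher and 5 lower in the mutants), none of them among the 10 genes. At an unadjusted p under 0.05, edgeR gave 529 genes and DESeq2 683. All 62 log2 fold changes of the 9 genes under settings that keep the 6 libraries had the same direction as reported, and the smallest adjusted p among them was 0.901. The count of genes whose groups do not overlap stayed at 0 of 9 under upper-quartile, DESeq2 and library-total scaling. Over the fits that each left out 1 library, 11 of 54 values changed direction, in 4 genes. The log2 fold changes of Fosb ran from -0.35 to 0.79, of Fosl2 from -0.052 to 0.19, of Junb from -0.035 to 0.45 and of Jund from -0.053 to 0.018. Fosb turned without control replicates 1 or 3 or mutant replicate 1, Fosl2 without control replicates 1 or 3 or mutant replicates 2 or 3, Junb without control replicate 3 or mutant replicate 1, and Jund without control replicate 1 or mutant replicate 1. With the replicate number as a block, 0 genes had an adjusted p under 0.05 and 814 an unadjusted p under 0.05, and the log2 fold change was 0.50 for Fos (unadjusted p = 0.0193 in edgeR) and 0.25 for Fosb. With limma-voom and sample quality weights, the log2 fold change of Fosb went from 0.01 to 0.61, of Fosl2 from 0.02 to 0.13 and of Atf3 from 0.25 to 0.30 (unadjusted p = 0.0399 in limma). Unadjusted p-values in edgeR were 0.0300 for Fos and 0.0429 for Ier2 without control replicate 1, and 0.0320 for Atf3 without control replicate 2. Same-numbered libraries deviated from their group means with correlations of 0.37, 0.17 and 0.02, and mutant replicate 3 correlated best with control replicate 2, so the numbers were not taken as pairs. Over the fits without 1 library, list medians ran from 0.018 to 0.097 for the other bZIP genes, from -0.053 to 0.087 for the other early response genes, from -0.037 to 0.052 for the upstream kinases and from -0.22 to -0.055 for the MAPK phosphatases and feedback inhibitors. Fosl1, at 2 to 9 counts per library, fell under the minimum for testing. The 3 libraries a group leave intervals that reach 2.15-fold for Fos.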
